A study of Mus musculus with 12 samples.

Results

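The 39 genes described here encode the antioxidant defence governed in part by NRF2, the transcription factor made from Nfe2l2. They were chosen by symbol from a table of 24421 genes measured in mouse pancreatic islets, and all 39 passed the filter on low counts. NRF2 is held at low levels by KEAP1, which presents it for degradation until oxidants or electrophiles modify KEAP1, and it then switches on genes through the antioxidant response element. The products of these genes make and recycle glutathione and thioredoxin, destroy superoxide and peroxides, conjugate electrophiles or bind metals. Beta cells are known for low levels of several of these enzymes, whereas liver is rich in catalase and glutathione transferases and intestine expresses many of them too.

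Islet RNA came from control mice with floxed alleles of Bmal1 (Bmal1fl/fl) and from mice that carry the same alleles together with a tamoxifen-activated Cre driven by the rat insulin promoter (Bmal1fl/flRIPCreERT/+), called knockout here. The control mice are not labelled as carrying Cre, so the deletion and the presence of Cre cannot be told apart. Bmal1, listed in the files as Arntl, encodes a core activator of the circadian clock. Mice received citrate buffer (vehicle) or a submaximal dose of streptozotocin (STZ), a toxin that enters beta cells through the glucose transporter encoded by Slc2a2. Islets were taken 24 h after vehicle, 24 h after STZ or 4 wk after STZ, which gives 6 groups of 2 libraries, A and B, in 12 libraries, and no vehicle library at 4 wk was analysed here. The sources used here give neither ages nor tamoxifen dosing. Whether A and B are different animals is not stated in the labels, and the p-values then describe how far these libraries scatter, which may be technical in part. All groups are bulk islet preparations, in which fewer cells of a type and less RNA per cell cannot be told apart.

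Promoter sequence was read for the members with an entry in RefSeq's GRCm38.p6 promoter table, which gave 40 windows for 33 of the 39 genes, each from 250 bases before to 50 bases after a transcript start. The antioxidant response element core, searched on both strands as TGACNNNGC, occurred in 9 of the 40 member windows and in 12.4% of all 32851 windows in the table. Txnrd1, Prdx1 and Gclm are shown because they were higher in knockout 4 wk after STZ without following liver or gut transcripts, Nfe2l2 because it encodes the factor itself, Mgst1 and Gsta3 because they followed the liver transcript Alb most evenly, and Sod1 and Mt2 because they complete the members with a match before the start. The match in Srxn1 lay after the start and is not shown. Capitals mark the match, which reads on the opposite strand where it begins with GC.
Prdx1: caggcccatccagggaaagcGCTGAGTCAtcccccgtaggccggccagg
Txnrd1: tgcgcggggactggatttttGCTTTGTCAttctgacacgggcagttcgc
Gclm: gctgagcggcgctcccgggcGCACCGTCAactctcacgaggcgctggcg
Nfe2l2: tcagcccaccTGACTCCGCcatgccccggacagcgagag
Mgst1: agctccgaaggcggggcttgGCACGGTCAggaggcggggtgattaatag
Gsta3: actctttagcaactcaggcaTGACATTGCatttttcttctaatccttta
Sod1: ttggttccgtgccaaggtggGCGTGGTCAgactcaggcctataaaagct
Mt2: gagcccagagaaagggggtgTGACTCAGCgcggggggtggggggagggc

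In GRCm38.p6 these stretches lie at chr4:116685446-116685494 for Prdx1, chr10:82859094-82859142 for Txnrd1, chr3:122245403-122245451 for Gclm, chr6:138140451-138140499 for Mgst1, chr1:21240444-21240492 for Gsta3, chr16:90220686-90220734 for Sod1 and chr8:94172519-94172567 for Mt2, all on the plus strand, and at chr2:75704875-75704913 on the minus strand for Nfe2l2. In Prdx1 and Mt2 the match overlaps one for the AP-1 element TGANTCA, which occurred in 5 of the 40 member windows and in 7.81% of all windows. The E-box CACGTG, the letters bound by BMAL1 with its partner CLOCK, was found in 1 of the 40 member windows, that of Prdx4, and in 7.15% of all windows. The Prdx4 stretch at chrX:155338487-155338532, minus strand, is shown with the E-box in capitals because Prdx4 was lower in uninjured knockout islets.
Prdx4: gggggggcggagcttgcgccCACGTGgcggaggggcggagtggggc

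The metallothionein genes Mt1 and Mt2 are shown over the 250 bases before their starts, at chr8:94178839-94179088 and chr8:94172368-94172617 on the plus strand, because the neighbouring genes ordered the groups alike. Capitals mark matches to the metal response element, searched on both strands in the forms TGCGCNC and TGCACNC. The first form occurred in 7 of the 40 member windows and in 15.4% of all windows, and the second in 5 of the 40 and in 12.6% of all windows. These counts include matches after the start, which are not shown. In Mt1 they were TGCACTC at bases 3 to 9 and TGCGCTC at bases 21 to 27, and in Mt2 GTGCGCA at bases 5 to 11. Each match is a description of the letters in the window and carries no statement about binding.
Mt1: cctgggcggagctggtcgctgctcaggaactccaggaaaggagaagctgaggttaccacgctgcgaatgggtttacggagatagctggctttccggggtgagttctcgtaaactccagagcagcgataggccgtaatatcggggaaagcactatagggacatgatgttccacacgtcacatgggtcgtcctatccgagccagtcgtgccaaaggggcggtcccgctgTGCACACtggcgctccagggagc
Mt2: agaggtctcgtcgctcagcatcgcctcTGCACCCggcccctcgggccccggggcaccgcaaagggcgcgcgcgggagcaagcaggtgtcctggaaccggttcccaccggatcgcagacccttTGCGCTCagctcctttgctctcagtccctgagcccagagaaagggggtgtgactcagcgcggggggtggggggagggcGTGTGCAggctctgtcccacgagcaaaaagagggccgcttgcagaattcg

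The libraries held 101772241 to 127207523 counts each. The coverage of the Arntl exon at chr7:113284999-113285156 (mm10), relative to the transcript's mean, averaged 1.71 in the 6 control libraries (1.56 to 2.00) and 0.876 in the 6 knockout libraries (0.624 to 1.36), and these ranges did not overlap. Those of the other Arntl exons did. In CPM, a scaled count defined below, the Arntl total was 8.79 and 8.365 in control against 17.8 and 19.9 in knockout under vehicle. It was 11.2 and 10.8 against 8.88 and 9.43 at 24 h after STZ, and 20.6 and 20.4 against 11.3 and 11.6 at 4 wk. The total was thus higher in knockout under vehicle and lower after STZ. Markers of other tissues differed between the groups. The 18 liver markers together held 0.0206% of counts in control and 0.00623% in knockout under vehicle, 0.618% and 1.84% at 24 h after STZ, and 0.209% and 0.817% at 4 wk. The 11 intestine markers held 0.0104 to 0.0566% of counts in the libraries of every group except knockout STZ 4 wk, where they held 1.07 and 1.13%. In knockout STZ 24 h this sum hid opposite changes. There Slc2a5 stood at 36.1 and 40.2 CPM, against 108 to 134 under vehicle. The other intestine markers were higher there than under vehicle, among them Fabp2 at 121 and 102, Alpi at 144 and 159 and Apoa4 at 179 and 203. The 12 macrophage markers held 0.00854 to 0.0429% in 10 libraries and 0.15 and 0.152% in the 2 of knockout STZ 24 h. The 11 acinar markers ran from 5.83% in a knockout vehicle library to 22.7% in a knockout STZ 24 h library, and the 12 beta-cell markers fell to 1.97 and 2.2% in knockout STZ 24 h from 10.3 and 15.5% in knockout vehicle. Among these 5 lists the markers at 0 in both libraries of a group were 1 liver marker in knockout vehicle, 1 intestine marker in each of control vehicle and control STZ 24 h, and 4 intestine markers in knockout vehicle.

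Of the antioxidant genes, several were lower in knockout than in control islets under vehicle, and most were higher in knockout islets 24 h and 4 wk after STZ. In knockout against control under vehicle, 11 of the 39 members were lower and 0 higher at an adjusted p under 0.05, when 9.64% of the 17411 genes tested were called, 1.96% higher and 7.68% lower. At 24 h after STZ 22 members were higher and 2 lower in knockout, against a background of 43% called, 23.7% higher and 19.4% lower. At 4 wk after STZ 20 were higher and 0 lower, against 27.8% called, 19.9% higher and 7.89% lower. By edgeR at an unadjusted p under 0.05, 1 member was higher under vehicle and 0 were lower at 4 wk, and DESeq2's Wald test gave 0 for both. The members' median log2 fold changes in these comparisons were -0.09, 0.75 and 0.77, where the medians over all genes tested were 0, 0.002 and 0.007. The comparisons share samples with each other.

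**Figure D1:**
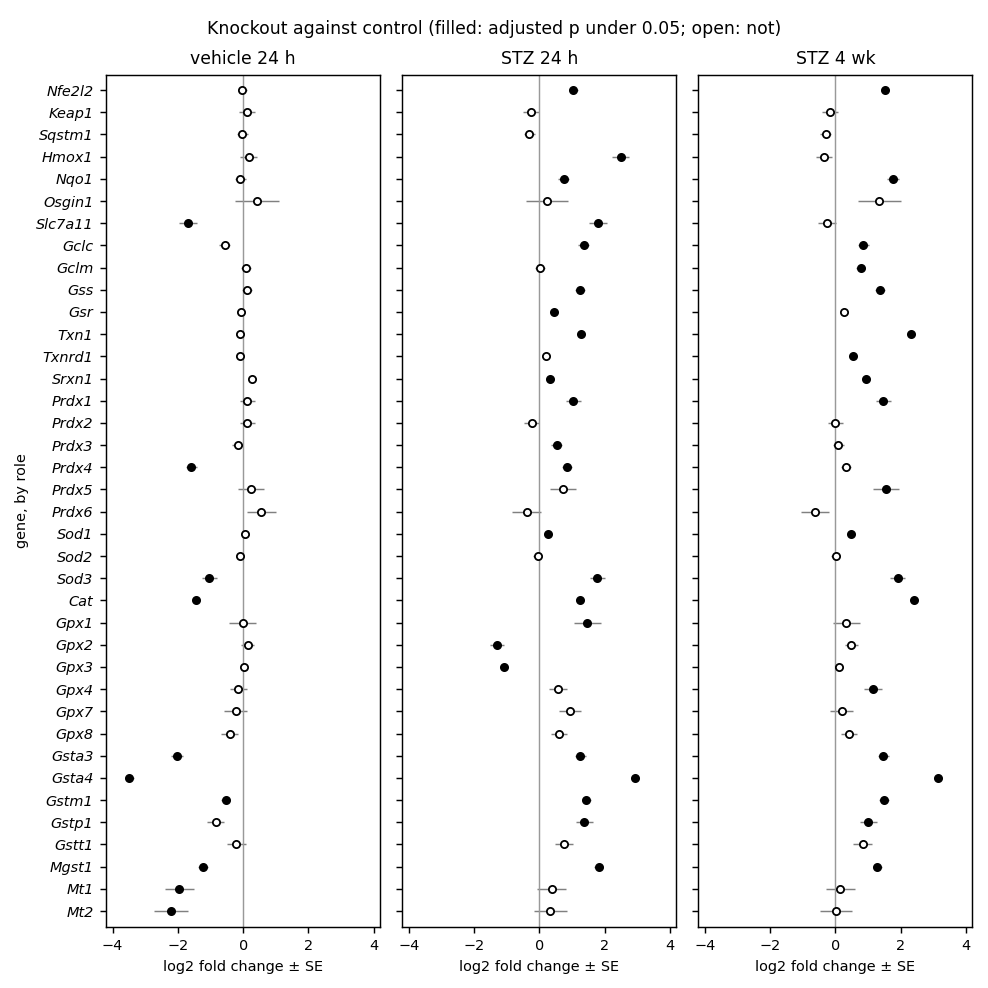
Log2 fold change (± SE) of knockout against control for 38 members, one column per condition and 2 libraries per group; Gsta1 is left out because its knockout vehicle libraries held 0 counts. With libraries scaled by the trimmed mean of M values (TMM), filled points, with an adjusted p under 0.05, lie left of 0 under vehicle and, apart from Gpx2 and Gpx3, right of 0 after STZ.

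In knockout islets STZ at 24 h raised 28 members and lowered 1 relative to vehicle, with 56.4% of all genes called, 30.1% higher and 26.2% lower. In control islets it raised 6 and lowered 3, with 7.56% called, 5.41% higher and 2.15% lower. The difference between these STZ effects, tested as an interaction, was positive for 20 members and negative for 2, with 37.7% of genes called, 21.1% positive and 16.6% negative. The median member changed by 1.40 in knockout and 0.22 in control on the log2 scale, against medians over all genes of 0 and 0.016. From 24 h to 4 wk after STZ, 2 members rose and 6 fell in control (background 5.49% called, 1.27% higher and 4.22% lower), while 9 rose and 12 fell in knockout (35.7% called, 20.2% higher and 15.5% lower).

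These counts depend on what the libraries are scaled to. Levels are given as CPM, a gene's counts relative to the size of its library, with sizes scaled by the trimmed mean of M values (TMM), which takes most genes as unchanged. Scaling to total counts moved the median of all genes by up to 0.79 on the log2 scale and gave 13 higher and 9 lower members under vehicle, when 6221 of the 17411 genes were higher and 984 lower. For STZ in control it gave 12 and 2 members and 2408 and 226 genes, for STZ in knockout 19 and 7 members and 4085 and 7563 genes, and for the interaction 13 and 11 members and 2436 and 7708 genes. The members it raised under vehicle include Nfe2l2 (0.51), Txn1 (0.45), Txnrd1 (0.45), Gsr (0.48), Sod2 (0.44) and Sqstm1 (0.50), none of which passed on TMM scaling, and it took Gstm1 from -0.53 to 0.00. Scaling to 14 pan-endocrine genes, whose share of counts fell from 3.08% in knockout vehicle to 0.519% in knockout STZ 24 h, moved the median gene by up to 2.07. It made all 39 members higher in knockout STZ 24 h than in control STZ 24 h and than in knockout vehicle, as it did 14428 and 14779 of the 17411 genes tested, so these counts largely restate the scaling. From 24 h to 4 wk it left 1 higher and 31 lower in knockout, with 556 higher and 12006 lower of all genes, and 1 higher and 6 lower in control, with 155 and 1089 of all genes. At 4 wk after STZ, 0 members were lower in knockout than in control under any of these scalings.

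**Figure D2:**
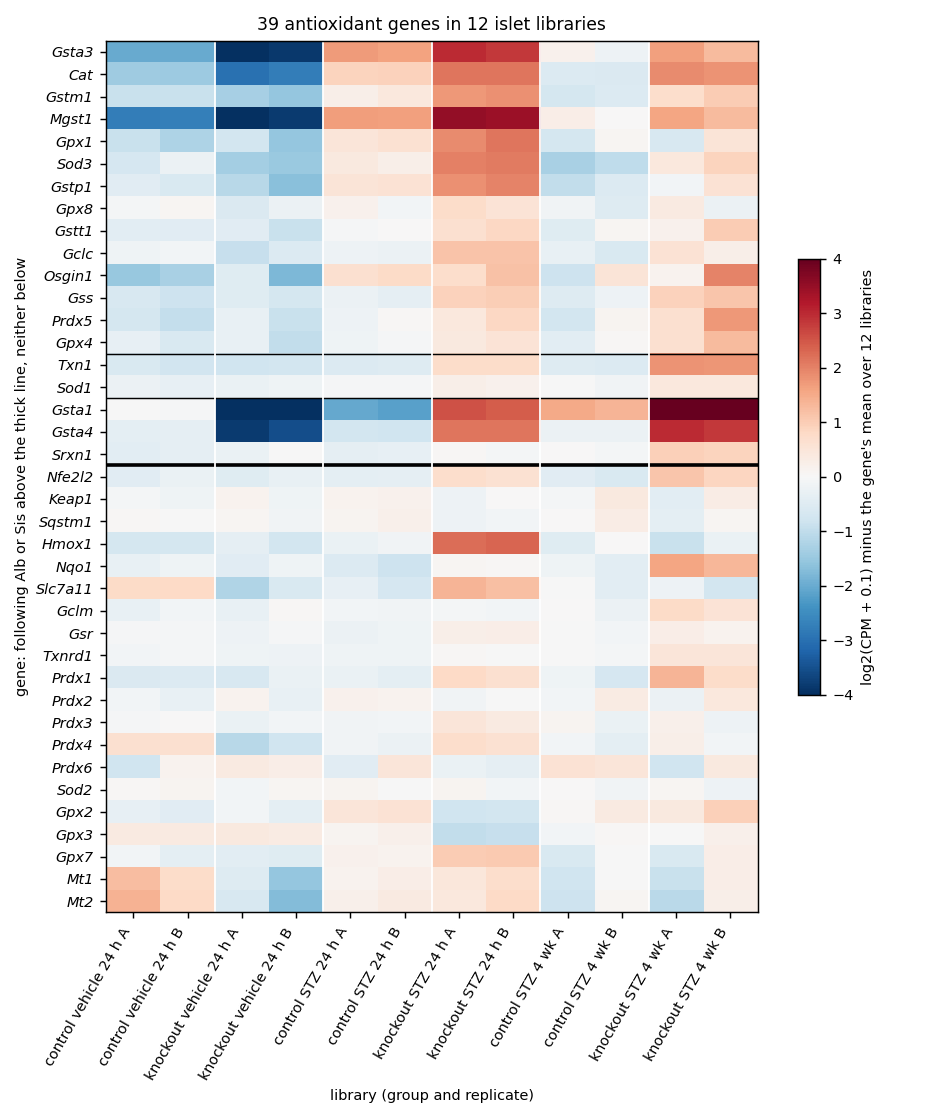
Each cell is log2(CPM + 0.1) minus the gene's mean over the 12 libraries, for 39 genes (rows) in 12 libraries (columns), with colour saturated beyond 4. Rows above the thick line order the libraries as Alb or Sis does, and their highest levels lie in the knockout STZ 24 h or 4 wk columns, while of the 20 rows below it 12 peak in those columns and 8 in other groups.

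Among the factor and its regulators, Nfe2l2 was higher in knockout islets after STZ, while under vehicle the difference did not pass on TMM scaling and was 0.51, past the threshold, on total-count scaling. Values are given as libraries A and B of each group, control first. Its level was 44.0 and 50.4 CPM in control against 43.4 and 49.4 in knockout under vehicle, 45.8 and 47.3 against 98.8 and 93.0 at 24 h after STZ, and 44.6 and 39.7 against 132 and 110 at 4 wk. The 4 knockout libraries after STZ stood above the other 8 with no overlap. The log2 fold change of knockout against control was -0.02 ± 0.13 (SE) under vehicle (adjusted p = 0.99), 1.04 ± 0.13 at 24 h (0.00026) and 1.52 ± 0.13 at 4 wk (4.7e-05). STZ changed it by -0.02 ± 0.13 in control (adjusted p = 0.96) and 1.05 ± 0.13 in knockout (0.00015), and these effects differed by 1.07 ± 0.18 (0.0018), a call that was lost on total-count scaling (0.236).

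Keap1, which encodes the NRF2 sensor, passed in 0 of the 8 comparisons by edgeR, with 0 at an unadjusted p under 0.05 and 0 by DESeq2's Wald test. It ranged from 21.6 to 37.7 CPM, with 27.3 and 25.7 in control against 32.1 and 25.5 in knockout under vehicle, 31.9 and 32.8 against 24.9 and 29.0 at 24 h after STZ, and 27.2 and 37.7 against 21.6 and 35.7 at 4 wk. At 4 wk the gap between libraries A and B was wider than that between the genotypes. Sqstm1, which encodes an autophagy receptor that binds KEAP1, lay between 147 and 237 CPM and also passed in none. Scaled to pan-endocrine genes, the knockout against control difference at 24 h after STZ became 1.45 for Keap1 and 1.41 for Sqstm1, where TMM gave -0.27 and -0.31.

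The classic NRF2 targets did not move as a block. Hmox1, encoding haem oxygenase 1, was 3.56 and 3.60 CPM in control against 4.54 and 3.47 in knockout under vehicle, 4.84 and 5.39 against 28.3 and 29.7 at 24 h after STZ, and 4.17 and 5.98 against 3.12 and 4.86 at 4 wk. Only the knockout libraries at 24 h were high, and 4 wk after STZ the level overlapped that of vehicle. Knockout exceeded control at 24 h by 2.50 ± 0.26 (adjusted p = 9.6e-05), STZ raised it in knockout by 2.85 ± 0.26 (2.5e-05), and it fell by 2.86 on the log2 scale, with an SE of 0.26, from 24 h to 4 wk in knockout (8.2e-05). Macrophages are a known source of haem oxygenase 1, and the macrophage gene Lyz2 peaked in the same libraries, at 670 and 637 CPM against 11.0 to 92.1 elsewhere; its part in the Hmox1 result was not tested.

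Nqo1, encoding a quinone reductase, was highest at 4 wk. Its level was 6.79 and 7.43 CPM in control against 6.07 and 7.31 in knockout under vehicle, 5.67 and 4.69 against 8.74 and 8.64 at 24 h after STZ, and 7.38 and 6.16 against 24.9 and 21.2 at 4 wk. Knockout against control gave 0.75 ± 0.17 at 24 h (adjusted p = 0.0066, but 0.0623 without control STZ 24 h library B) and 1.76 ± 0.17 at 4 wk (9e-05). From 24 h to 4 wk in knockout it rose by 1.40 ± 0.17 (0.00031, and 0.401 on pan-endocrine scaling). Osgin1, a stress-induced growth inhibitor, ranged from 1.72 to 24.6 CPM with a large gap between libraries A and B, at 6.81 and 24.6 in knockout STZ 4 wk. Its STZ change in knockout, 1.99 ± 0.68, passed (adjusted p = 0.033) but was lost without any of 7 libraries, namely both libraries of control vehicle, control STZ 24 h and knockout STZ 24 h and library B of knockout vehicle, with an adjusted p of up to 0.17.

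**Figure D3:**
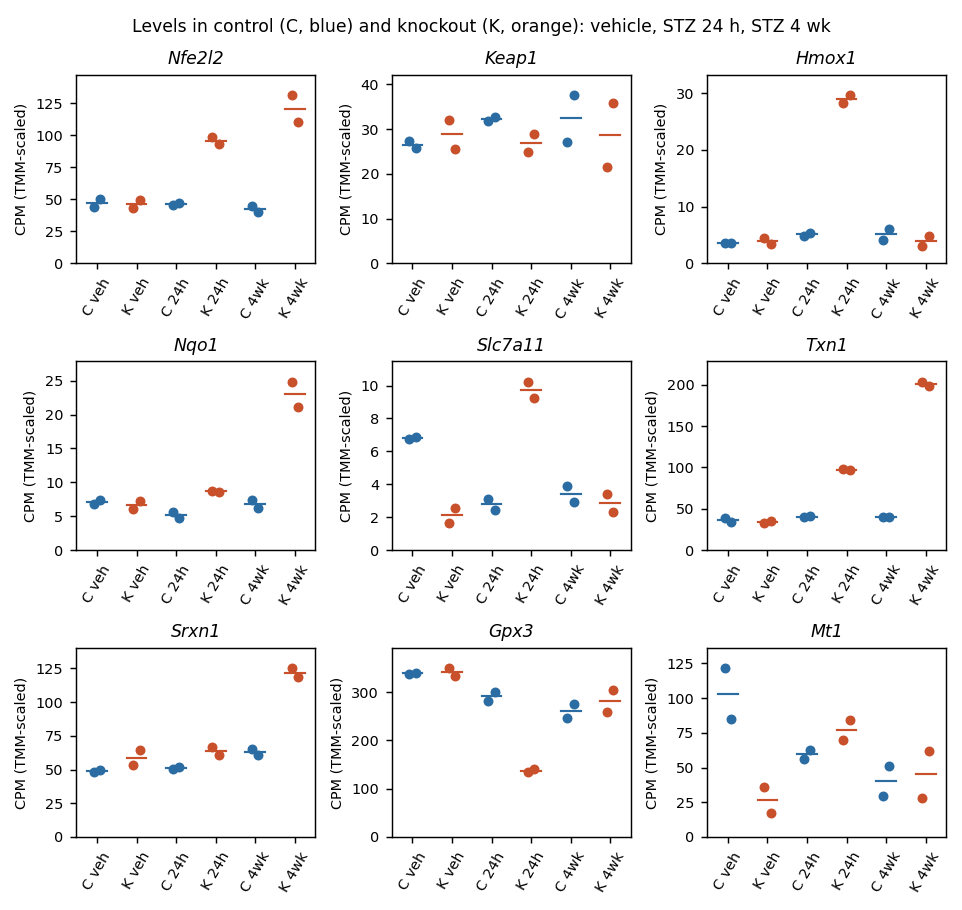
CPM (TMM-scaled, linear axes from 0) in each library for 9 members, with control in blue, knockout in orange, points for libraries and bars for the mean of 2. Hmox1 stood at 28.3 and 29.7 in knockout STZ 24 h alone, on this scaling Nqo1, Txn1 and Srxn1 were highest in knockout STZ 4 wk, and Gpx3 was lowest in knockout STZ 24 h.

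Within glutathione synthesis, the cystine importer Slc7a11 changed most. It stood at 6.75 and 6.86 CPM in control against 1.66 and 2.56 in knockout under vehicle, 3.12 and 2.44 against 10.2 and 9.22 at 24 h after STZ, and 3.87 and 2.93 against 3.40 and 2.31 at 4 wk. Control vehicle and knockout STZ 24 h were the high groups. Knockout was lower than control under vehicle by -1.69 ± 0.28 (adjusted p = 0.0051) and higher 24 h after STZ by 1.81 ± 0.28 (0.00089), and the STZ effects of the genotypes differed by 3.50 ± 0.39 (0.00017). The fall with STZ in control, -1.29 ± 0.28 (adjusted p = 0.023), was lost without any of the 4 libraries compared, with an adjusted p of up to 0.198. The acinar markers were likewise lowest in knockout vehicle and high in control vehicle and knockout STZ 24 h, and the order of Slc7a11 matched that of the acinar gene Cpa1 in 47 of 60 pairs of libraries; their part was not tested.

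Glutamate-cysteine ligase, the rate-limiting enzyme of glutathione synthesis, has a catalytic subunit encoded by Gclc and a modifier encoded by Gclm, and on TMM scaling the levels of these genes moved at different times. Gclc was 45.8 and 47.8 CPM in control against 27.3 and 35.9 in knockout under vehicle, 45.2 and 43.9 against 115 and 114 at 24 h after STZ, and 42.5 and 34.4 against 78.3 and 61.4 at 4 wk. Gclm was 46.2 and 53.1 CPM in control against 46.7 and 59.0 in knockout under vehicle, 52.9 and 51.7 against 53.7 and 52.5 at 24 h after STZ, and 56.9 and 48.1 against 96.3 and 83.2 at 4 wk. On this scaling Gclc peaked in knockout at 24 h and Gclm at 4 wk, while on pan-endocrine scaling Gclm changed by -0.46 from 24 h to 4 wk in knockout (adjusted p = 0.0387). Knockout against control at 24 h was 1.37 ± 0.17 for Gclc (adjusted p = 0.00027) and 0.02 ± 0.15 for Gclm (0.92). At 4 wk the values were 0.86 ± 0.17 for Gclc (0.0053) and 0.77 ± 0.15 for Gclm (0.0044). Those 4 wk calls for Gclc and Gclm were lost when only the 4 libraries compared entered the fit, with adjusted p = 0.111 and 0.114.

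The last enzyme of the pathway, glutathione synthetase (Gss), ran from 7.97 to 12.3 CPM in 8 libraries and from 27.0 to 30.5 in the 4 knockout libraries after STZ. It was higher in knockout by 1.26 ± 0.15 at 24 h (adjusted p = 0.00019) and 1.38 ± 0.15 at 4 wk (0.00018). Glutathione reductase (Gsr), which recycles oxidised glutathione, stayed between 33.6 and 47.1 CPM. Its difference at 24 h, 0.44 ± 0.10 (adjusted p = 0.0059), was lost on total-count scaling (0.145) and without control STZ 24 h library A (0.053).

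On TMM scaling the thioredoxin genes were highest in knockout islets 4 wk after STZ. Txn1, thioredoxin itself, was 38.3 and 34.1 CPM in control against 33.3 and 34.7 in knockout under vehicle, 39.6 and 41.1 against 97.5 and 96.6 at 24 h after STZ, and 40.6 and 40.2 against 204 and 199 at 4 wk. The 4 knockout libraries after STZ stood apart from the other 8, which lay close together. Knockout exceeded control by 1.27 ± 0.09 at 24 h (adjusted p = 1.4e-05) and 2.31 ± 0.10 at 4 wk (1e-06). Its rise from 24 h to 4 wk in knockout, 1.05 ± 0.09 (5.9e-05), became -0.18 when scaled to pan-endocrine genes (0.185).

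Srxn1, encoding sulfiredoxin, which reactivates overoxidised peroxiredoxins, was 48.2 and 50.02 CPM in control against 53.5 and 64.2 in knockout under vehicle, 50.3 and 51.7 against 66.7 and 61.2 at 24 h after STZ, and 64.9 and 60.8 against 125 and 119 at 4 wk. The 4 wk knockout libraries stood apart, by 0.95 ± 0.11 over control (adjusted p = 0.00027). The 24 h difference of 0.33 ± 0.11 (adjusted p = 0.042) was lost on total-count scaling (0.623) and on leaving out any of 8 libraries, all but those of knockout vehicle and knockout STZ 4 wk, with an adjusted p of up to 0.208. Txnrd1, encoding cytosolic thioredoxin reductase, was 108 and 111 CPM in control against 104 and 102 in knockout under vehicle, 103 and 102 against 121 and 115 at 24 h after STZ, and 114 and 111 against 162 and 164 at 4 wk. It too was highest in the 4 wk knockout libraries, by 0.53 ± 0.08 over control (adjusted p = 0.0015, and 0.224 with only the 4 libraries compared). On pan-endocrine scaling the change from 24 h to 4 wk in knockout was -0.76 for Txnrd1 (adjusted p = 0.0002) and -0.29 for Srxn1 (0.0749).

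Peroxiredoxins, which reduce peroxides with thioredoxin, split by member. Averaged over the 12 libraries, Prdx1 was the most abundant member per length, at 314 TPM, a measure of transcript abundance that takes length into account. By group mean it led only in knockout STZ 4 wk. Its level was 161 to 230 CPM in the 8 control and knockout vehicle libraries, 452 and 401 in knockout STZ 24 h, then 660 and 426 in knockout STZ 4 wk. It was higher in knockout by 1.05 ± 0.24 at 24 h (adjusted p = 0.0073, and 0.0561 without control STZ 24 h library B) and 1.48 ± 0.24 at 4 wk (0.0019). Prdx4, the peroxiredoxin of the endoplasmic reticulum, had another pattern, with 92.7 and 91.9 CPM in control against 27.4 and 33.9 in knockout under vehicle, 53.8 and 50.4 against 95.8 and 91.0 at 24 h after STZ, and 55.4 and 45.4 against 70.4 and 55.3 at 4 wk. Knockout was lower under vehicle by -1.59 ± 0.16 (adjusted p = 0.00029) and higher after STZ at 24 h by 0.84 ± 0.16 (0.0025). Prdx4 followed the acinar gene Cpa1 in 52 of 60 pairs of libraries, and the acinar markers' part in it was not tested.

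Mitochondrial Prdx3 reached 69.3 and 63.9 CPM in knockout STZ 24 h against 41.2 to 57.7 elsewhere, and its difference from control at 24 h, 0.54 ± 0.17 (adjusted p = 0.028), was lost on total-count scaling (0.196) and without any of the 4 libraries compared, with an adjusted p of up to 0.132. Prdx5 ranged from 12.8 to 82.5 CPM, with 38.4 and 82.5 in the libraries of knockout STZ 4 wk, and its 4 wk difference of 1.55 ± 0.40 (adjusted p = 0.02) was lost without knockout STZ 4 wk library B or control STZ 4 wk library A (0.119 at most). Prdx2, at 46.1 to 75.6 CPM, and Prdx6, at 52.6 to 137 CPM, passed in no comparison by edgeR, with 0 at an unadjusted p under 0.05 and 0 by DESeq2. In control vehicle the Prdx6 libraries were at 52.9 and 102 CPM, so its replicate spread was wide.

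Of the enzymes against superoxide and hydrogen peroxide, catalase moved most and mitochondrial Sod2 least. Cat was 29.5 and 29.0 CPM in control against 9.98 and 11.6 in knockout under vehicle, 148 and 149 against 351 and 349 at 24 h after STZ, and 54.1 and 52.9 against 294 and 276 at 4 wk. All 6 groups were separated without overlap. Knockout against control was -1.44 ± 0.10 under vehicle (adjusted p = 3.6e-05), 1.24 ± 0.10 at 24 h (2.2e-05) and 2.41 ± 0.10 at 4 wk (1.1e-06). STZ at 24 h raised Cat by 2.34 ± 0.10 in control (1.9e-06) and 5.02 ± 0.12 in knockout (1.2e-08).

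Sod2 was 60.8 and 63.6 CPM in control against 54.3 and 62.2 in knockout under vehicle, 62.7 and 58.3 against 63.0 and 54.1 at 24 h after STZ, and 59.3 and 53.5 against 62.0 and 51.4 at 4 wk. These libraries overlapped throughout, and its difference between genotypes at 24 h after STZ was -0.05 ± 0.13 (adjusted p = 0.8), or 1.67 when scaled to pan-endocrine genes. Cytosolic Sod1 ran from 76.1 CPM to 126 CPM and was highest in knockout STZ 4 wk, 0.48 ± 0.09 above control (adjusted p = 0.0047, and 0.274 with only the 4 libraries compared). Extracellular Sod3 was low, at 0.981 to 5.59 CPM outside knockout STZ 24 h and 12.3 and 12.9 there. It was higher in knockout by 1.78 ± 0.23 at 24 h (adjusted p = 0.00032) and 1.91 ± 0.23 at 4 wk (0.00039). Under vehicle it was lower in knockout, at -1.04 (adjusted p = 0.024), a call lost on total-count scaling (0.105).

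Glutathione peroxidases moved in both directions. Gpx1, the cytosolic enzyme, was 18.1 and 14.2 CPM in control against 20.2 and 11.5 in knockout under vehicle, 47.5 and 51.3 against 125 and 148 at 24 h after STZ, and 20.5 and 35.1 against 21.7 and 48.4 at 4 wk. It was high at 24 h after STZ and overlapped between genotypes at the other times. STZ raised it in knockout by 3.10 ± 0.44 (adjusted p = 0.00035), and its genotype difference at 24 h, 1.46 ± 0.41 (0.02), was lost without control STZ 24 h library A, control STZ 24 h library B or knockout STZ 24 h library B (0.105 at most).

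Gpx2, an epithelial peroxidase, was 10.5 and 9.66 CPM in control against 12.1 and 10.03 in knockout under vehicle, 18.3 and 19.6 against 7.52 and 7.89 at 24 h after STZ, and 13.4 and 17.0 against 17.2 and 25.3 at 4 wk. Knockout STZ 24 h was its lowest group. There it was below control by -1.3 ± 0.20 (adjusted p = 0.00097) under TMM, and above it by 0.42 when scaled to pan-endocrine genes. Gpx3, the secreted peroxidase, showed the same low group. It was 338 and 339 CPM in control against 349 and 334 in knockout under vehicle, 282 and 301 against 134 and 140 at 24 h after STZ, and 247 and 275 against 259 and 305 at 4 wk. Its difference between genotypes at 24 h was -1.09 ± 0.11 (adjusted p = 8e-05), against 0.63 on pan-endocrine scaling, and the levels of beta-cell and pan-endocrine markers were lowest in the same libraries. Of the other peroxidases, Gpx4, which protects lipids, was higher in knockout at 4 wk by 1.16 ± 0.27 (adjusted p = 0.013, lost without control STZ 4 wk library A or knockout STZ 4 wk library B, at most 0.0882), while Gpx7 and Gpx8, at 0.592 to 6.62 CPM, passed for STZ at 24 h in knockout, where both rose, the call of Gpx8 being lost on total-count scaling (0.0731). Gpx7 also fell from 24 h to 4 wk in knockout, a call lost without either library of knockout STZ 24 h or library A of knockout STZ 4 wk (0.103 at most) and with only the libraries compared (0.0848).

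Glutathione transferases, which conjugate electrophiles, held the largest changes. Mgst1, the microsomal enzyme, was 7.53 and 7.69 CPM in control against 2.97 and 3.51 in knockout under vehicle, 166 and 160 against 596 and 553 at 24 h after STZ, and 62.6 and 52.0 against 153 and 125 at 4 wk. Gsta3 was 5.77 and 5.80 CPM in control against 1.298 and 1.53 in knockout under vehicle, 77.4 and 72.4 against 188 and 171 at 24 h after STZ, and 26.6 and 20.8 against 74.7 and 56.8 at 4 wk. Both genes were lower in knockout under vehicle, and STZ raised them in both genotypes. For Mgst1 the STZ effect was 4.42 ± 0.16 in control (adjusted p = 1e-06) and 7.47 ± 0.19 in knockout (2e-08). For Gsta3 it was 3.69 ± 0.18 in control (3.7e-06) and 6.99 ± 0.22 in knockout (5e-08).

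Gsta4, which acts on lipid peroxidation products, was 7.89 and 8.09 CPM in control against 0.635 and 0.793 in knockout under vehicle, 6.12 and 5.88 against 45.5 and 45.7 at 24 h after STZ, and 8.78 and 8.83 against 82.7 and 74.5 at 4 wk. Control libraries stayed within 5.88 to 8.83 CPM, so knockout moved from below to above them. Its genotype difference was -3.48 ± 0.13 under vehicle (adjusted p = 9.8e-07), 2.93 ± 0.12 at 24 h (1.5e-06) and 3.16 ± 0.12 at 4 wk (8.2e-07). Gsta1 was 8.42 and 8.25 CPM in control against 0 and 0 in knockout under vehicle, 1.97 and 1.80 against 49.5 and 46.2 at 24 h after STZ, and 24.5 and 21.7 against 238 and 187 at 4 wk. Against a floor of 3 counts over the knockout vehicle group, Gsta1 was at least 725-fold lower there than in control vehicle and at least 4150-fold lower than in knockout STZ 24 h. After STZ it was higher in knockout than in control by 4.67 ± 0.16 at 24 h (adjusted p = 1.7e-06) and 3.20 ± 0.15 at 4 wk (4.9e-06). Gsta1 has the near-identical neighbour Gsta2, Gstp1 has Gstp2 and Gstm1 has several relatives, and the counting could split reads between them, so these values are uncertain.

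Gstm1 ranged from 36.8 CPM in knockout vehicle to 382 CPM in knockout STZ 24 h, and Gstp1 from 26.9 to 340 CPM between the same groups. In knockout against control Gstm1 gave 1.45 ± 0.14 at 24 h (adjusted p = 7.1e-05) and 1.49 ± 0.14 at 4 wk (8.9e-05), and Gstp1 1.37 ± 0.26 (0.0029) and 1.01 ± 0.26 (0.019). The 4 wk call of Gstp1 was lost without control STZ 4 wk library A or knockout STZ 4 wk library B (0.118 at most). Gstt1, at 10.5 to 39.9 CPM, rose with STZ in knockout by 1.40 ± 0.29 (0.0032) and passed in no genotype comparison.

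The metallothioneins, small cysteine-rich metal-binding proteins, were highest in control vehicle. Mt1 was 121 and 85.1 CPM in control against 35.8 and 17.6 in knockout under vehicle, 56.4 and 62.5 against 70.2 and 84.4 at 24 h after STZ, and 29.8 and 50.9 against 28.0 and 62.0 at 4 wk. Mt2 was 97.0 and 63.7 CPM in control against 23.3 and 11.1 in knockout under vehicle, 42.3 and 46.8 against 49.1 and 63.9 at 24 h after STZ, and 20.9 and 38.6 against 17.3 and 43.0 at 4 wk. The neighbouring genes kept the same order of groups, with wide gaps between libraries A and B. These gaps were not particular to the pair. Gpx1, Gpx4 and Prdx5, on other chromosomes, were likewise higher in library A of both vehicle groups and in library B of every STZ group. In knockout STZ 4 wk, for example, Gpx1 was 21.7 and 48.4 CPM and Prdx5 38.4 and 82.5. Under vehicle, knockout was lower by -1.95 ± 0.46 for Mt1 (adjusted p = 0.029) and -2.22 ± 0.52 for Mt2 (0.028). Both calls were lost without any of 7 libraries, namely both libraries of control vehicle, control STZ 24 h and knockout STZ 24 h and library B of knockout vehicle (0.16 at most for Mt1 and 0.158 for Mt2). Mt1 and Mt2 ordered 52 and 53 of 60 pairs of libraries as Cpa1 did, and the acinar markers' part in them was not tested.

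Members that followed liver or gut transcripts were separated by the order of the libraries. For each member, the 60 pairs of libraries from different groups, were compared with the order of Alb, the albumin transcript of liver, and of Sis, the sucrase-isomaltase transcript of intestine, and a member that matched in at least 48 pairs was taken to follow. The split uses the levels themselves, so contrasts between its classes are a description with no test. Alb was 117 and 129 CPM in control against 1.84 and 2.22 in knockout under vehicle, 2853 and 2932 against 10760 and 10130 at 24 h after STZ, and 906 and 743 against 3030 and 2515 at 4 wk. Sis was at most 0.049 CPM in the vehicle groups and control STZ 24 h, and stood at 26.1 and 25.1 in knockout STZ 24 h, with 67.9 and 49.3 at 4 wk in control against 2990 and 2034 in knockout.

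By this rule 14 members followed Alb alone, 2 followed both, 3 followed Sis alone and 20 followed neither. The Alb group held Gsta3 (59 of 60 pairs), Cat, Gstm1 and Mgst1 (58 each), Gpx1 and Sod3 (54 each), Gstp1 (53), Gpx8 and Gstt1 (50 each), Gclc, Gss and Osgin1 (49 each), and Gpx4 and Prdx5 (48 each). Txn1 matched Alb in 51 and Sis in 48.5 pairs, and Sod1 in 49 and 48.5. Srxn1 matched Sis in 50.5 pairs, and Gsta1 and Gsta4 in 48.5 each. Just outside the limit were Txnrd1 (47.5, with Sis), Gpx7 (47, with Alb) and Gclm, Gsr and Nqo1 (46.5 each, with Sis). Sis held only 0 to 6 counts in each library of the vehicle groups and control STZ 24 h. Its order among those groups therefore rests on ties or a few counts, and the matches to Sis near the limit, on either side of it, can depend on that order. Of the 20 that followed neither, Nfe2l2 reached 43, Hmox1 45 and Prdx1 46 pairs, and Gpx3 only 17.5.

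The order of Alb is not its own. Alb and the macrophage gene Lyz2 ordered 58 of the 60 pairs alike, and Cat and Gstm1 matched Lyz2 in all 60. Sod3 (56 pairs), Gstp1 (55), Txn1 (53), Gstt1 (52), Gss, Osgin1 and Sod1 (51 each) and Gpx4 and Prdx5 (50 each) also matched Lyz2 better than Alb. Gclc matched the acinar gene Cpa1 in 52 pairs and Lyz2 in 51. Gpx1 matched Alb and Lyz2 in 54 each, and only Gsta3, Mgst1 and Gpx8 matched Alb better than Lyz2, which they matched in 57, 56 and 48 pairs. As a description chosen after the values were seen, each member's rise in CPM over the vehicle group of its genotype was divided by the rise of Alb in the same group. Mgst1 rose by 5.61% of the Alb rise in control STZ 24 h, 5.47% in knockout STZ 24 h, 7.08% in control STZ 4 wk and 4.91% in knockout STZ 4 wk, a 1.44-fold span over groups in which the Alb rise itself ran from 701 to 10400 CPM. Gsta3 rose by 2.50, 1.70, 2.55 and 2.32% of the Alb rise in the same groups, a 1.5-fold span. Divided by the rise of Lyz2 in place of Alb, the spans were 15.4-fold for Mgst1 and 17.8-fold for Gsta3. The highest of these ratios, 1370% for Mgst1 and 494% for Gsta3, were those of control STZ 4 wk. There Lyz2 rose by only 3.62 CPM, and its SD between libraries was 2.90, so these spans rest on a small divisor. In control STZ 24 h, knockout STZ 24 h and knockout STZ 4 wk the ratios were 397, 88.9 and 176% for Mgst1 and 177, 27.7 and 83.3% for Gsta3. The source of these transcripts was not tested.

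The other members that rose in all 4 STZ groups had wider ratios to Alb. Gpx1 spanned 2.41-fold, Cat 3.05-fold (3.25 to 9.90%), Gstm1 3.28-fold, Gstt1 3.7-fold and Txn1 40.1-fold. For Cat the ratio was 4.30, 3.25 and 3.45% in 3 groups and 9.90% in knockout STZ 4 wk, the group with the highest share of intestine markers. Txn1 rose by 0.604% of the Alb rise in knockout STZ 24 h and 6.03% in knockout STZ 4 wk. Against Sis, Txn1 rose by 247% of the Sis rise in knockout STZ 24 h, 7.27% in control STZ 4 wk and 6.65% in knockout STZ 4 wk. The ratios of Srxn1 to Sis in these groups were 19.8, 23.5 and 2.51%, and those of Gsta1 were 187, 25.2 and 8.46%. No single ratio to Sis held for these 3 genes across the groups.

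**Figure D4:**
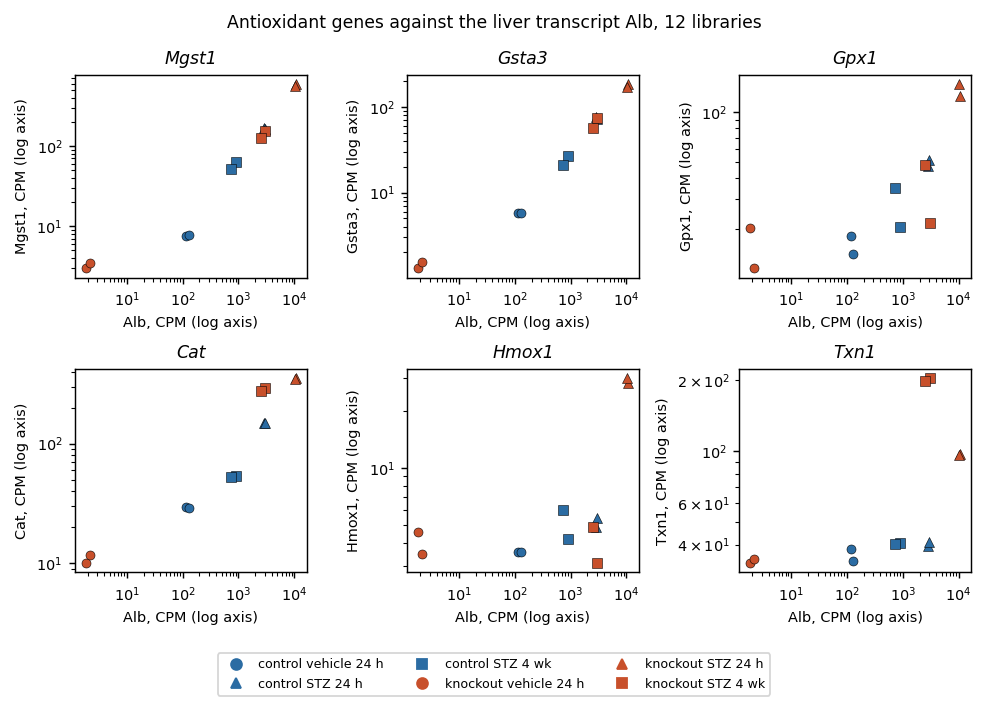
CPM of 6 members (vertical, log axis) against CPM of Alb (horizontal, log axis) in the 12 libraries, with colour for genotype and shape for condition. Mgst1 and Gsta3 climb with Alb through all groups, Cat lies above that course in knockout STZ 4 wk, Hmox1 is high only in knockout STZ 24 h, and Txn1 is highest in knockout STZ 4 wk although Alb is higher in knockout STZ 24 h.

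All 19 followers had their highest group mean in knockout STZ 24 h (10 genes) or knockout STZ 4 wk (9 genes). Of the 20 others, 6 peaked in each of those groups, 3 in control vehicle, 3 in control STZ 4 wk and 1 each in control STZ 24 h and knockout vehicle. Among the 20, 8 were higher and 2 lower in knockout at 24 h after STZ, with a median log2 fold change of 0.36, and 5 were higher and 0 lower at 4 wk, with a median of 0.14. Of all genes tested 23.7% were higher and 19.4% lower at 24 h, and 19.9% were higher and 7.89% lower at 4 wk. In either direction 43 and 27.8% were called, close to the share of these 20 genes, but at both times their calls lay mostly on the higher side. The rule had already set aside members ordered like Alb or Sis, which are highest in knockout after STZ. Shares of the remaining 20 genes against all genes are therefore a description, and whether they exceed the background was not tested. The 5 were Nfe2l2, Nqo1, Gclm, Txnrd1 and Prdx1. Among the 19 followers 14 were higher at 24 h (median 1.26) and 15 at 4 wk (median 1.34), and 0 were lower. Under vehicle 7 followers and 4 others, namely Slc7a11, Prdx4, Mt1 and Mt2, were lower in knockout, as were 7.68% of all genes tested. In control islets STZ at 24 h raised 5 of the 19 followers and 1 of the 20 others, the latter being Gpx2 (0.91 ± 0.20, adjusted p = 0.027, lost without any of 6 libraries, those of control vehicle, control STZ 24 h and knockout STZ 24 h, at most 0.182). It raised 5.41% of all genes tested, so 1 of the 20 is near the background. From 24 h to 4 wk in control, 2 followers rose and 6 fell, and 0 of the 20 others passed by edgeR or by DESeq2, with 1 higher at an unadjusted p under 0.05. Of all genes tested 5.49% were called in this comparison, so 0 of the 20 is near the background too.

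The difference between the STZ effects of the genotypes was largest for Gsta1, Gsta4, Slc7a11, Gsta3 and Mgst1. For Gsta4 STZ gave -0.41 ± 0.12 in control (adjusted p = 0.078) and 5.999 ± 0.15 in knockout (1.5e-08), a difference of 6.41 ± 0.18 (1.6e-07). For Mgst1 the difference was 3.05 ± 0.20 (9.9e-06) and for Cat 2.68 ± 0.14 (2.6e-06). Of the 20 genes that follow neither transcript, the difference was positive for 9, negative for 2 and did not pass for 9. Of all genes tested 21.1% were positive and 16.6% negative. Among the 9 positive were Nfe2l2 at 1.07 ± 0.18 (0.0018, and 0.236 on total-count scaling), Hmox1 at 2.34 ± 0.36 (0.00094) and Prdx4 at 2.43 ± 0.22 (5.2e-05). Gpx3 and Gpx2 differed the other way, by -1.10 ± 0.16 (0.0006) and -1.44 ± 0.28 (0.004), and by 0.98 and 0.65 on pan-endocrine scaling. For Gsta1, Gsta3, Gsta4, Gstm1, Mgst1, Cat, Slc7a11, Prdx4 and Sod3 the knockout was lower than control under vehicle and higher 24 h after STZ. Part of each difference thus lay in the vehicle groups. The vehicle call of Gstm1 was lost on total-count scaling and without any of 10 libraries (0.244 at most). That of Sod3 was lost on total-count scaling (0.105) and without any of 5 libraries (0.163 at most).

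Other genes of the pathway come from lists of the factor's partners, targets and neighbours. Their counts in knockout against control are to be read against all genes tested, of which 23.7% were higher and 19.4% lower at 24 h after STZ and 19.9% higher and 7.89% lower at 4 wk. From each list the gene of smallest adjusted p in a direction is named, which need not have the largest fold change. Of 9 NRF2 partners and regulators, 1 was higher and 2 lower in knockout 24 h after STZ, and 3 higher and 0 lower at 4 wk, which is 33.3% called at each time. Bach2, a repressor that competes for related sites, gave 3.43 ± 0.24 at 24 h (adjusted p = 1.1e-05) and 1.52 ± 0.22 at 4 wk (0.001). It is a known lymphocyte gene. The 6 lymphoid markers together held 0.0258% of counts in knockout STZ 24 h and at most 0.00167% in any library of the other groups, and their part was not tested. The 2 that were lower at 24 h were Rbx1 (-0.38 ± 0.11, adjusted p = 0.018), a subunit of the ligase that marks NRF2 for degradation, and Nfe2l1 (-0.52 ± 0.17, 0.035), a relative of NRF2. Of 6 genes of NADPH supply, 4 were higher at 24 h and 3 at 4 wk. The smallest p was that of malic enzyme (Me1) at 24 h, with 0.74 ± 0.13 (adjusted p = 0.0021), and of isocitrate dehydrogenase (Idh1) at 4 wk, with 2.27 ± 0.19 (4.3e-05).

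Among 17 further NRF2 targets, 12 were higher and 0 lower at 24 h, and 8 higher and 0 lower at 4 wk, which is 70.6 and 47.1% called. Ephx1, encoding microsomal epoxide hydrolase, had the smallest p at 24 h, with 2.36 ± 0.13 (adjusted p = 4.5e-06), and Abcc2, an exporter of conjugates, at 4 wk, with 4.44 ± 0.15 (5.8e-07). Abcc2 stood at 2.27 and 2.22 CPM in control against 1.82 and 2.09 in knockout under vehicle. It was 39.8 and 36.8 against 158 and 147 at 24 h after STZ, and 14.8 and 11.7 against 304 and 271 at 4 wk, so it was above vehicle after STZ in control too. Liver and intestine markers also held larger shares of counts in knockout than in control at both times after STZ, and their part in the lists of this paragraph was not tested. Of 15 other glutathione transferases, 11 were higher and 1 lower at 24 h, and 12 higher and 0 lower at 4 wk, which is 80% called at each time. Gstm3 had the smallest p at both times, with 2.70 ± 0.12 (1.6e-06) and 3.94 ± 0.12 (3.8e-07), and stood at 223 and 254 CPM in knockout STZ 4 wk against 0.33 to 44.0 CPM in the other libraries.

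Of 15 other thioredoxin and glutaredoxin genes, 4 were higher and 3 lower at 24 h and 6 higher and 1 lower at 4 wk, which is 46.7% called at each time. Sesn3, encoding a sestrin, was lower at both times, by -1.05 ± 0.10 (adjusted p = 5e-05) and -0.89 ± 0.10 (0.0002), while glutaredoxin (Glrx) was higher at 4 wk by 2.00 ± 0.12 (6.7e-06). Of 10 genes of the NADPH oxidases, which make superoxide, 9 were higher at 24 h and 5 at 4 wk, and none was lower. Ncf1, a subunit of the phagocyte oxidase, had the smallest p at both times, with 3.48 ± 0.15 at 24 h (1.7e-06) and 1.98 ± 0.15 at 4 wk (1.8e-05), in the libraries where macrophage markers were high; their part was not tested. Of 6 metal response genes, 5 were tested, of which 1 was higher and 1 lower at 24 h and 1 higher at 4 wk. Slc39a14, a zinc and iron importer, was higher in knockout by 1.37 ± 0.10 at 24 h (1.4e-05) and 1.40 ± 0.10 at 4 wk (1.6e-05), and Mtf1, the factor that binds metal response elements, was lower at 24 h by -0.41 ± 0.09 (0.0046).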

How the data were processed

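Islet RNA was sequenced as stranded, polyA-selected paired-end libraries, per the labels' protocols. The authors deposited estimated counts per gene that StringTie 1.3.6 derived from transcript coverage on mm10, per the file headers, and each count equals coverage times length divided by 75, rounded up, within 1. The TPM values used to compare levels between genes were deposited by the authors in StringTie's transcript files. The step that aligned reads was not given in the sources used here.

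Members and gene lists were chosen with earlier results of these data known. Counts of 17411 genes that passed filterByExpr were scaled by TMM and tested two-sided with edgeR 4.0.16 (quasi-likelihood, robust, Benjamini-Hochberg over all genes tested, threshold 0.05) in R 4.3.3, with all 12 libraries and 6 group means giving 6 residual degrees of freedom; the common dispersion was 0.0493. SE is the log2 fold change divided by the square root of F. The scripts were tested on simulated data. Depth was 101772241 to 127207523 counts per library, so most uncertainty lies between libraries. Libraries A and B of each group differed beyond counting noise (chi-square per degree of freedom of at least 25.1). Alternatives were DESeq2 1.42.0, other scalings and filters, a replicate block and each library left out. Genes given per library were 16 set by name and the members of smallest p, namely Gsta4, Txn1, Mgst1 and Gsta3. Of each list of other pathway genes, the gene of smallest adjusted p in each direction was named. Values of other members, such as Gpx3, Prdx1 and Prdx4, were chosen after they were seen.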

Additional observations from a re-analysis of the deposited data

Results flagged for a closer look

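The effect of STZ at 24 h differed between knockout and control, by edgeR's interaction test, in 22 members, and each value here is the knockout effect minus the control effect on the log2 scale. For Gpx2 it was -1.44, with STZ effects of 0.91 in control, which passed, and -0.52 in knockout, which did not, and for Gpx3 -1.10, with an STZ effect that passed in knockout alone (-1.32). It was positive for the other members. Where STZ raised the gene past the threshold in both genotypes it was 1.98 for Gstm1, 2.21 for Gstp1, 2.68 for Cat, 3.05 for Mgst1 and 3.29 for Gsta3. Where the control effect passed as a fall it was 2.43 for Prdx4, 3.50 for Slc7a11 and, as fitted, 17.57 for Gsta1. Where the control effect did not pass it was 0.50 for Gsr, 0.71 for Prdx3, 0.84 for Nqo1, 1.07 for Nfe2l2, 1.13 for Gss, 1.36 for Txn1, 1.93 for Gclc, 2.33 for Mt1, 2.34 for Hmox1, 2.57 for Mt2, 2.83 for Sod3 and 6.41 for Gsta4. The fitted value for Gsta1 is set against knockout vehicle libraries with 0 counts and is no bound. The calls of Gsr, Prdx3, Nqo1, Mt1 and Mt2 were each lost on leaving out any of 5 to 8 of the libraries, with adjusted p of up to 0.079, 0.125, 0.0906, 0.0673 and 0.0724. On total-count scaling those 5 calls and those of Nfe2l2 and Gss were lost, with adjusted p = 0.236 for Nfe2l2 and 0.183 for Gss.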

How the results depend on the processing

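Single-member values turned in sign 35 times on pan-endocrine scaling and 19 times on total-count scaling. These counts take in only values that passed the threshold on TMM scaling, on the other scaling or on both. On pan-endocrine scaling, knockout against control after STZ at 24 h became 0.42 for Gpx2, 0.63 for Gpx3, 1.45 for Keap1, 1.48 for Prdx2, 1.33 for Prdx6, 1.67 for Sod2 and 1.41 for Sqstm1, and under vehicle -0.35 for Gpx3. STZ in knockout became 1.45 for Gpx2, 0.66 for Gpx3, 1.88 for Keap1, 1.96 for Prdx2, 1.37 for Prdx6 and 1.85 for Sqstm1. From 24 h to 4 wk in knockout it gave -0.46 for Gclm, -0.19 for Gpx3, -0.72 for Gpx4, -1.16 for Gss, -0.44 for Gsta4, -1.15 for Keap1, -0.88 for Nfe2l2, -0.86 for Prdx1, -1.04 for Prdx2, -1.05 for Prdx6, -1.03 for Sod1, -1.21 for Sqstm1, -0.29 for Srxn1, -0.18 for Txn1 and -0.76 for Txnrd1. The interaction became 2.02 for Gclm, 0.65 for Gpx2, 0.98 for Gpx3, 1.69 for Keap1, 1.72 for Prdx2 and 1.80 for Sqstm1. On total-count scaling, STZ in knockout became -0.47 for Gclm, -0.11 for Gsr, -0.051 for Sod1, -0.47 for Sod2, -0.36 for Srxn1 and -0.28 for Txnrd1, and the interaction -0.29 for Gsr, -0.076 for Prdx3, -0.59 for Sod1, -0.74 for Sod2, -0.72 for Srxn1 and -0.51 for Txnrd1. Under vehicle it became 0.48 for Gsr, 0.001 for Gstm1, 0.51 for Nfe2l2, 0.44 for Sod2, 0.50 for Sqstm1, 0.45 for Txn1 and 0.45 for Txnrd1. The cause was not tested.

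Counts of members called moved by over 1.5 times under vehicle, to 22 on total-count and 17 on pan-endocrine scaling from 11; at 24 h, to 39 on pan-endocrine scaling from 24; at 4 wk, to 13 from 20 with only the libraries compared; for STZ in control, to 14 on total-count scaling and 24 with only the libraries compared from 9; and on pan-endocrine scaling to 32 from 21 for 4 wk against 24 h in knockout and to 37 from 22 for the interaction. Requiring 54 in place of 48 pairs left 6 followers of 19. With 1 library left out, counts ran from 7 to 13 under vehicle, 18 to 27 at 24 h, 17 to 23 at 4 wk, 5 to 11 and 24 to 30 for STZ in control and knockout, 5 to 8 and 17 to 22 for 4 wk against 24 h in control and knockout, 17 to 27 for the interaction and 16 to 24 for followers. The vehicle count was 7 without control vehicle library B or either knockout STZ 24 h library. The count for STZ in control was 5 without either library of control vehicle or of control STZ 24 h, and that for 4 wk against 24 h in control was 5 without control STZ 4 wk library A. A replicate block on the letters A and B gave 13, 34, 26, 8, 29, 7, 20 and 33 members in the order vehicle, 24 h, 4 wk, STZ in control and knockout, 4 wk against 24 h in control and knockout, and interaction. The labels do not state that the letters pair samples, so the main fit held no block. Over genes, the A minus B differences of the genotypes correlated at 0.09 under vehicle, 0.04 at 24 h after STZ and 0.41 at 4 wk. Whether the letters mark a shared batch was not tested. Depth was not the limit for these genes except Gsta1 at 0 counts.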

Other observations

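The share of Txnrd1 counts that went to the transcript starting at position 82860341 of chromosome 10 (mm10) lay between 3.12 and 11.9% in 1 library of every group and between 80 and 95.1% in the other. Transcripts of Txnrd1 were therefore not compared between groups, while its gene total differed little between libraries A and B.

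Per length, the order of the members differed from their order by change. Over the 12 libraries Prdx1 (314 TPM) and Gpx3 (282 TPM) were the most abundant members, and Slc7a11, at 0.714 TPM, was the least. In control vehicle Gpx3 averaged 272 TPM, Mt1 231, Mt2 175, Prdx1 149 and Sod1 147. By group mean Prdx1 led only in knockout STZ 4 wk (642 TPM), Mgst1 led in knockout STZ 24 h (789 TPM), and Gpx3 led in the other groups.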
